A study of Mus musculus with 6 samples.

Results

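Glutathione is the cell's main small thiol. The genes that make it, regenerate it, spend it and export its products were followed in IL-1β-treated mouse chondrocytes, the cells of cartilage. The 36 genes were taken by name from a table of 28812 genes, and all 36 were present. They comprise 5 genes grouped under synthesis and supply (Ggct among them acts in breakdown), glutathione reductase and 4 glutaredoxins. The rest are 5 peroxidases, 19 glutathione transferases (GSTs) of the alpha, mu, pi, theta, omega, zeta, kappa and microsomal classes, and 2 exporters.

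Poly(A) RNA was sequenced in 6 libraries of chondrocytes of the wild-type (wt) genotype, all labelled OA (osteoarthritis) and all given interleukin-1β (IL-1β), a cytokine used to bring on an inflamed, osteoarthritis-like state in culture. In 3 libraries the cells also received mitochondria, which the series title says came from osteocytes, and in 3 they received vehicle. The labels give no dose, time, age or sex, do not say whether replicates were separate animals or cultures, and no group without IL-1β was analysed here. P-values therefore measure the spread between these libraries, which may be technical, and all levels are those of IL-1β-treated cells.

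Glutathione is built in 2 steps: glutamate-cysteine ligase joins glutamate to cysteine, and glutathione synthetase adds glycine. Peroxidases and glutaredoxins oxidise it while removing peroxides and mixed disulfides, glutathione reductase returns it to the reduced form with NADPH, and transferases attach it to electrophiles that ABC transporters then pump out. Several of these genes are textbook targets of the transcription factor NRF2, which binds the antioxidant response element. Chondrocytes meet peroxides and reactive aldehydes during inflammation, and the pathway is one of their defences.

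The libraries held 63547854 to 66293786 deposited counts each. One sequenced fragment was worth about 4 of these counts, so each library rested on about 15886964 to 16573446 fragments. On the first principal component of all tested genes (43.0% of the variance), vehicle replicate 1 lay at 30.39, between the mitochondria libraries (-81.44 to -27.36) and the other vehicle libraries (56.75 and 56.36), and mitochondria replicate 1 lay farthest out. All 12 chondrocyte markers listed were detected, with summed levels of 190 to 224 FPKM (fragments scaled to transcript length and library depth) in mitochondria libraries and 227 to 266 FPKM in vehicle libraries. Of these 12, Sox9 and Acan rose (0.54 each on the log2 scale) and Col11a1 and Hapln1 fell (-0.94 and -1.03). Erythroid markers summed to 88.6 to 105 FPKM with mitochondria and 156 to 196 FPKM with vehicle, and 4 of their 6 genes fell. Of 6 synovial fibroblast markers 3 fell and 1 rose, with sums of 126 to 136 FPKM with mitochondria and 162 to 183 FPKM with vehicle. Macrophage markers summed to 40.9 to 49.8 FPKM with mitochondria and 42.6 to 53.3 FPKM with vehicle, and none of 10 passed in edgeR. Adipocyte markers summed to 21.2 to 22.0 FPKM with mitochondria and 21.2 to 23.9 FPKM with vehicle, with 1 of 6 tested lower and Lep at 0 throughout (the extraction protocol speaks of adipose material). Osteocyte markers (5 of 6 listed were found, all but Mepe) summed to 120 to 131 FPKM with mitochondria and 78.6 to 119 FPKM with vehicle. Nearly all of it was Pdpn, which was higher without overlap (0.52, adjusted p = 0.064, edgeR). Fgf23 had 0.143 to 0.523 FPKM with mitochondria and 0.056 to 0.179 FPKM with vehicle (1.34, adjusted p = 0.10). Neither of these 2 passed, and the others were not tested. Phex was at most 0.0734 FPKM in any library. Sost and Dmp1 were at 0 in every mitochondria library and at most 0.0252 FPKM with vehicle. The part of these other cell types in the results below was not tested, and in bulk RNA fewer cells of a type and less RNA per cell cannot be told apart.

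Chondrocytes given mitochondria had more transcript of both subunits of glutamate-cysteine ligase, of glutathione synthetase, glutathione reductase, glutaredoxin 1, 6 transferases and both exporters than chondrocytes given vehicle. Of 35 genes tested, 13 rose (37.1%), against 6.36% of all 17290 genes tested, and none fell, against 8.46% of all genes (edgeR quasi-likelihood test, Benjamini-Hochberg adjusted p under 0.05). The genes were chosen with earlier results of these data known, so these shares describe the list and are not an independent test. Nearest to a call as lower was Glrx3 (-0.23, unadjusted p = 0.024, adjusted p = 0.10, edgeR). DESeq2 called none of the 35 lower, against 2175 of all 17290 genes. Limma on log2(FPKM + 1) called 1 of the 35 lower, Glrx3, against 1735 of all 17290 genes. The rises ran between 1.31-fold (Gstm2) and 3.51-fold (Gsta3), and the median log2 fold change over the 35 was 0.36, against 0 over all genes. Of the 35 estimates 28 were above 0, against 50.3% of all genes. The abundant peroxidases, the theta transferases and the microsomal transferases did not pass. Summed over all 36 genes, the level was 1448 ± 93.2 FPKM with mitochondria and 1145 ± 19.0 FPKM with vehicle (SD, n = 3 each).

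**Figure D1:**
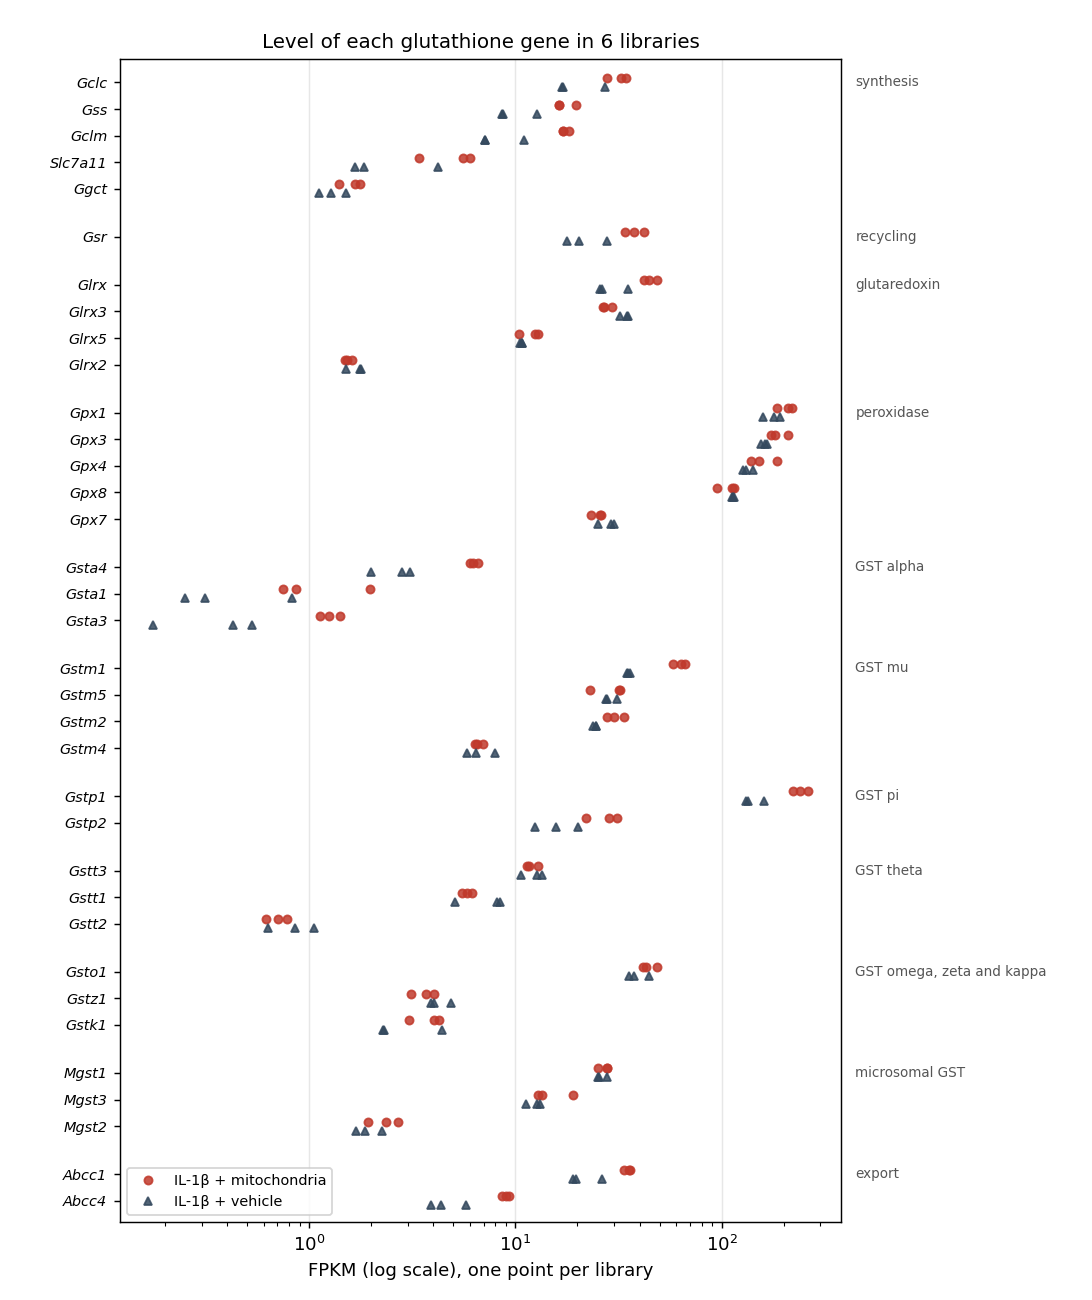
FPKM on a log axis for 35 of the 36 genes, grouped by role, with 1 point per library (circles, IL-1β with mitochondria; triangles, IL-1β with vehicle). Gsta2 is left out because 5 of its 6 values are 0. Levels run from under 1 FPKM (Gsta3, Gstt2) to over 100 FPKM (Gpx1, Gpx3, Gpx4, Gstp1), and the mitochondria circles lie fully to the right of the vehicle triangles in 14 genes.

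Values are FPKM as the authors deposited them, which can be compared between genes, and each fold change sets mitochondria against vehicle, in log2 units, from a fit to the counts. The FPKM ranges of the 2 groups did not overlap in 15 of the 35 genes, 14 of them higher and 1 lower with mitochondria. Over all genes tested, 15.1% were higher and 25% lower without overlap, 40.1% in all. All 13 genes that rose were among the 14, and the other was the secreted peroxidase Gpx3.

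Of 5 genes grouped under synthesis and supply, 3 rose and the other 2, Slc7a11 and Ggct, had estimates above 0. Ggct acts in breakdown. Gclm encodes the modifier subunit of glutamate-cysteine ligase, the rate-limiting enzyme. It stood at 17.0, 18.1 and 17.1 FPKM in mitochondria libraries, against 11, 7.14 and 7.15 FPKM in vehicle libraries. The groups were well apart, vehicle replicate 1 was the highest of its group, and Gclm rose by 1.11 ± 0.17 (SE; adjusted p = 0.0075, edgeR). Gclc, the catalytic subunit, had 27.8, 34.3 and 32.4 FPKM with mitochondria, against 27.1, 17.1 and 16.8 FPKM with vehicle. Its lowest mitochondria value lay just above vehicle replicate 1, and it rose by 0.70 ± 0.19 (adjusted p = 0.043). That call was lost without vehicle replicate 2 (adjusted p = 0.158), vehicle replicate 3 (0.161), mitochondria replicate 2 (0.0938) or mitochondria replicate 3 (0.111). Within each library the ratio of Gclm to Gclc FPKM was 0.610, 0.529 and 0.527 with mitochondria, against 0.407, 0.418 and 0.427 with vehicle. The ratio, a comparison chosen after the values were seen, was higher in every mitochondria library (difference 0.138, exact two-sided permutation p = 0.1, the smallest that 20 assignments allow).

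Gss, glutathione synthetase, had 19.6, 16.2 and 16.3 FPKM with mitochondria, against 12.7, 8.57 and 8.72 FPKM with vehicle. The groups did not overlap, and it rose by 0.86 ± 0.17 (adjusted p = 0.015, edgeR), a call lost without vehicle replicate 2 or 3. Slc7a11 is the transport subunit of the antiporter that brings in cystine, the source of cysteine. It had 3.39, 6.05 and 5.54 FPKM with mitochondria, against 4.22, 1.66 and 1.85 FPKM with vehicle. Vehicle replicate 1 lay above mitochondria replicate 1, so the groups overlapped, and the estimate of 1.02 (95% interval 0.19 to 1.84) did not pass (adjusted p = 0.095). Without vehicle replicate 1 Slc7a11 was called higher (1.58, adjusted p = 0.00886), as it was with GC offsets (1.43, adjusted p = 0.014), which remove each library's trend of counts with the GC content of genes. Ggct, which cleaves gamma-glutamyl amino acids in the breakdown of glutathione, changed by 0.37 (interval -0.01 to 0.75, adjusted p = 0.16) at 1.61 ± 0.195 FPKM with mitochondria and 1.3 ± 0.202 FPKM with vehicle (SD, n = 3 each), and was called with GC offsets (0.54, adjusted p = 0.027).

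The start of Gclm (ENSMUSG00000028124, chromosome 3, 122245557 to 122270732, plus strand, GRCm38) is shown because it holds a match to the pattern TGACNNNGC. That pattern is a short form of the antioxidant response element, and no other form was searched for. RefSeq promoters of 300 bases on GRCm38.p6, 250 before and 50 after each start, were searched for TGACNNNGC on both strands, where it reads GCNNNGTCA on the other strand. Of 31 genes of the pathway with a promoter, 6 held at least 1 match (19.4%), against 14.0% of all genes. Among the genes that rose, 3 of 9 with a promoter held a match, Gclm, Gsta3 and Abcc4, and among those that did not pass 3 of 21 did, Ggct, Mgst1 and Gstm5. A match is a run of letters and not a bound site, and binding was not tested. Windows are printed only for genes that rose. The Gclm window, on its own strand with the match in capitals, which begins at position -134 from the start and lies on the other strand, is:
Gclm promoter, chr3:122245307-122245606, plus strand: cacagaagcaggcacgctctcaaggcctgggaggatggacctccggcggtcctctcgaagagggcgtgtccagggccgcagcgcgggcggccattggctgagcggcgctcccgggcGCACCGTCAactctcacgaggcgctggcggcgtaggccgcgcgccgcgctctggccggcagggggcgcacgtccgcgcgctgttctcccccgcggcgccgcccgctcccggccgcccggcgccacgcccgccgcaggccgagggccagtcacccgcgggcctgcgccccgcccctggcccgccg

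Gsr is glutathione reductase, which turns the oxidised disulfide back into glutathione. It had 42.1, 34.1 and 37.4 FPKM with mitochondria, against 27.9, 17.8 and 20.3 FPKM with vehicle. All 3 mitochondria libraries were above all vehicle libraries, and Gsr rose by 0.85 ± 0.17 (SE; adjusted p = 0.017, edgeR). The call was lost when either of vehicle replicates 2 and 3, or mitochondria replicate 3, was left out.

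These small enzymes use glutathione to remove it from protein thiols or to carry iron-sulfur clusters, and 1 of 4 rose. Glrx, the cytosolic glutaredoxin 1, had 48.6, 42.2 and 44.6 FPKM with mitochondria, against 35.1, 26.4 and 25.6 FPKM with vehicle. It rose by 0.70 ± 0.14 (adjusted p = 0.015, edgeR) with no overlap, and the call was lost without vehicle replicate 2 or 3. Glrx3, a cytosolic protein of iron handling, pointed the other way, with 26.7, 27.0 and 29.5 FPKM in mitochondria libraries against 32.2, 34.7 and 35.1 FPKM in vehicle libraries. Its groups did not overlap, yet the estimate of -0.23 (interval -0.41 to -0.04) did not pass (adjusted p = 0.10), and it was -0.07 with GC offsets (adjusted p = 0.59). The mitochondrial glutaredoxins Glrx5 and Glrx2 changed by 0.23 (interval -0.02 to 0.47) and -0.06 (interval -0.34 to 0.22), neither past the threshold, at means of 11.9 and 1.54 FPKM with mitochondria and 10.6 and 1.68 FPKM with vehicle. The sign for Glrx2 turned with GC offsets (0.19, adjusted p = 0.35).

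Glutathione peroxidases reduce peroxides, and they made up the largest share of the pathway's transcript of the classes listed: 47.4% ± 0.346 of the summed FPKM with mitochondria and 53.7% ± 3.28 with vehicle (SD, n = 3 each). The lower share was not a lower level. Their summed FPKM was 686 ± 47.4 with mitochondria and 614 ± 33.9 with vehicle, with overlap between libraries, while the sum over all 36 genes was higher with mitochondria. None of 5 passed in edgeR, against 14.8% of all genes called in either direction, and 5 genes are too few to set against that share. DESeq2 called 1, Gpx3 (adjusted p = 0.0324), against 9.76% of all genes that it called higher. The members differ at the catalytic residue. The coding sequences of Gpx1, Gpx3 and Gpx4 each hold 1 in-frame TGA before the end, read as selenocysteine, while Gpx7 and Gpx8 have a cysteine codon at the same place. The 33 bases around that codon are shown, in capitals for the codon, from GENCODE M21 transcripts on GRCm38:
Gpx1, chr9:108339436-108339468, plus strand: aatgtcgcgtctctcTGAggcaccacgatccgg
Gpx3, chr11:54907241-54907273, plus strand: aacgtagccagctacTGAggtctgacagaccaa
Gpx4, chr10:80054722-80054754, plus strand: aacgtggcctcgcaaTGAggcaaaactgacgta
Gpx7, chr4:108403415-108403447, minus strand: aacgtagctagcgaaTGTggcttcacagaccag
Gpx8, chr13:113045646-113045678, minus strand: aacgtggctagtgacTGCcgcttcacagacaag

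The 3 selenocysteine enzymes had estimates above 0 of like size. Gpx1, which clears hydrogen peroxide in cytosol and mitochondria, had 219, 185 and 210 FPKM with mitochondria, against 159, 193 and 180 FPKM with vehicle. Its groups overlapped, with an estimate of 0.28 (interval 0.05 to 0.50, adjusted p = 0.098, edgeR). Gpx3, secreted into the matrix and plasma, had 211, 182 and 174 FPKM with mitochondria, against 155, 166 and 162 FPKM with vehicle. There the groups did not overlap, with an estimate of 0.30 (interval 0.09 to 0.52, adjusted p = 0.065). Gpx4, which reduces lipid peroxides in membranes, had 186, 139 and 152 FPKM with mitochondria, against 127, 142 and 131 FPKM with vehicle, and an estimate of 0.32 (interval 0.06 to 0.58, adjusted p = 0.095). Mitochondria replicate 1 was the highest library for all 3. These 3 genes are GC-rich (55.2% to 58.3%), and with GC offsets their estimates were 0.11, 0.15 and 0.13 (adjusted p = 0.38, 0.14 and 0.26).

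Both cysteine peroxidases work in the endoplasmic reticulum. Gpx8 averaged 108 ± 11.4 FPKM with mitochondria and 114 ± 1.87 FPKM with vehicle, and Gpx7 averaged 25.0 ± 1.60 FPKM with mitochondria and 28.2 ± 2.65 FPKM with vehicle (SD, n = 3 each). Their estimates were -0.01 (interval -0.23 to 0.21) and -0.10 (interval -0.35 to 0.14). Gpx8, at 43.4% GC, was called higher with GC offsets (0.33, adjusted p = 0.014, edgeR), opposite in sign to its estimate without them. Gpx4 shares sequence with the pseudogene Gpx4-ps2, 99.7% identical over 733 aligned bases, which the table lists at 57.5 to 84.1 FPKM with mitochondria and 53.1 to 58.7 FPKM with vehicle. The reads of the 2 could be split between them in counting, so the level of Gpx4 is uncertain; summed, they had 270, 197 and 219 FPKM with mitochondria, against 181, 201 and 185 FPKM with vehicle.

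**Figure D2:**
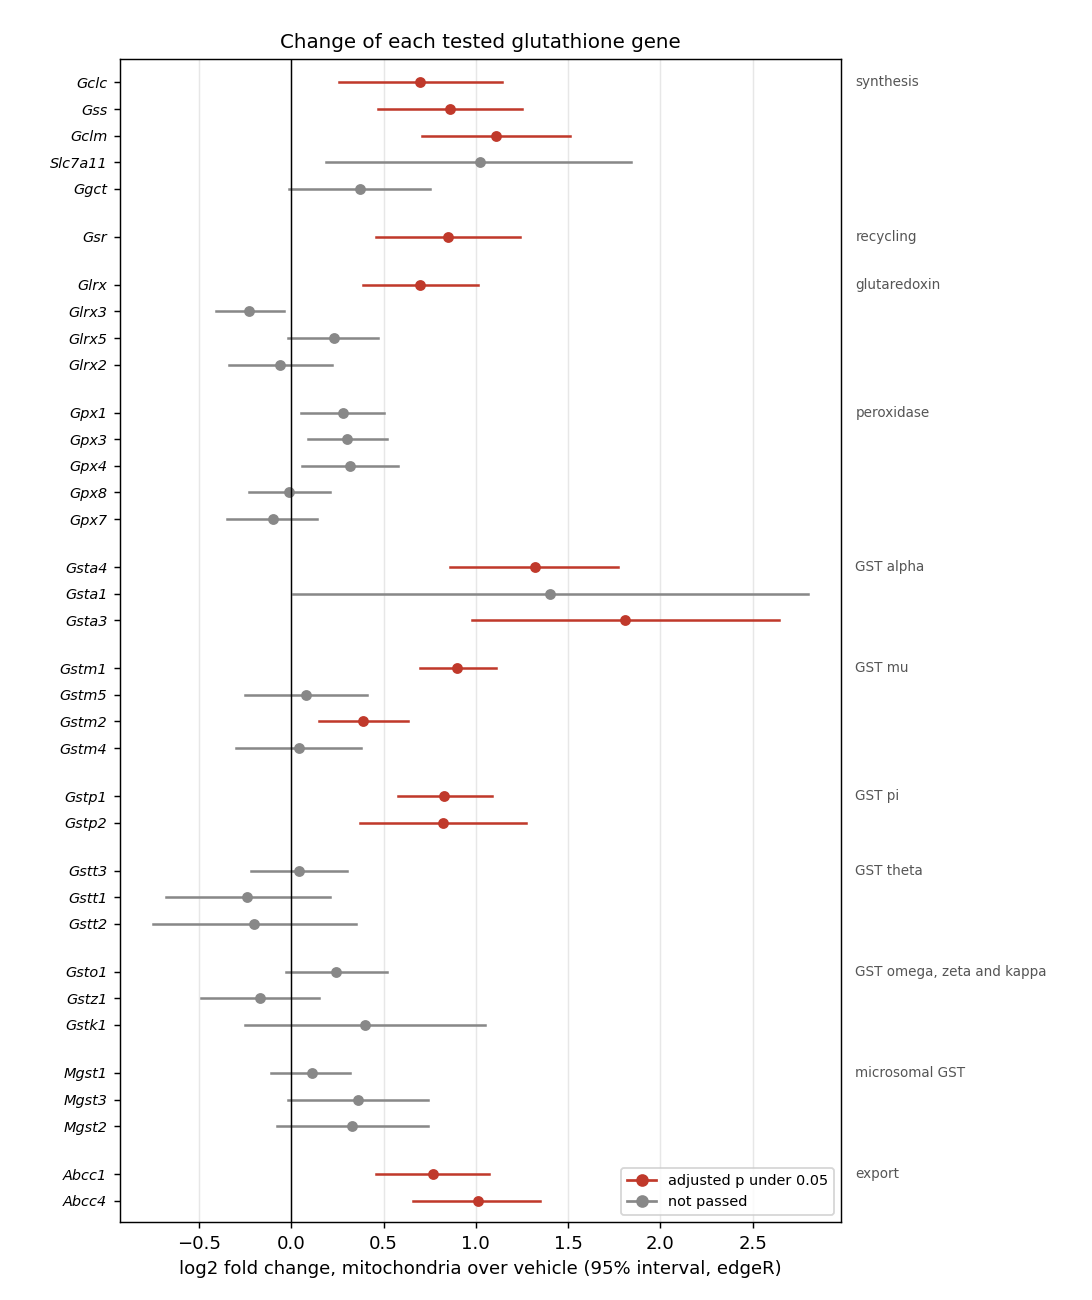
Log2 fold change of mitochondria over vehicle for the 35 genes tested, with 95% intervals from edgeR, grouped by role. Red marks the 13 genes with an adjusted p under 0.05, all to the right of 0, and grey the 22 that did not pass; the 5 peroxidases sit between -0.10 and 0.32.

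Transferases of the alpha class conjugate glutathione to lipid peroxidation products and other electrophiles. Of 3 tested, 2 rose. Gsta4, specialised for the aldehyde 4-hydroxynonenal, had 6.59, 6.02 and 6.24 FPKM with mitochondria, against 2.83, 3.09 and 2 FPKM with vehicle. Every mitochondria library was far above every vehicle library, and Gsta4 rose by 1.32 ± 0.20 (SE; adjusted p = 0.0072, edgeR) and passed with any 1 library left out. Gsta3, known in mice for detoxifying aflatoxin epoxide, had 1.41, 1.25 and 1.13 FPKM with mitochondria, against 0.524, 0.424 and 0.174 FPKM with vehicle. This was the largest fold among the genes that rose (1.81 ± 0.37, adjusted p = 0.017), at only 349 to 447 counts with mitochondria and 55 to 163 with vehicle, and it was lost without vehicle replicate 2. Gsta1 had 0.861, 1.97 and 0.743 FPKM with mitochondria, against 0.826, 0.312 and 0.249 FPKM with vehicle, an overlap at 51 to 134 and 18 to 57 counts. Its estimate of 1.4 had an interval of 0.01 to 2.80 (adjusted p = 0.16). Gsta2 was not tested: it had 22 counts in mitochondria replicate 3 and 0 in the other 5 libraries. Its transcript is 97.2% identical to that of Gsta1, so counts of the pair are uncertain. The Gsta3 window (chromosome 1, gene at 21240589 to 21265661), with its match to TGACNNNGC in capitals at position -121, is:
Gsta3 promoter, chr1:21240335-21240634, plus strand: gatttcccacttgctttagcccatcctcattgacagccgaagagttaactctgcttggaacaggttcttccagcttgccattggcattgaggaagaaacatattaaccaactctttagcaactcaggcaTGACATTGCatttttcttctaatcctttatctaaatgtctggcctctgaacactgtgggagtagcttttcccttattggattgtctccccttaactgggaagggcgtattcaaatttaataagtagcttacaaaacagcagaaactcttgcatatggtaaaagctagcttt

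The 4 mu genes followed here lie on chromosome 3 between 107895821 and 108044894 (GRCm38), and 2 rose. Gstm7 (-1.21, adjusted p = 0.19, edgeR) and Gstm6 (0.91, adjusted p = 0.72), counted in the wider list below, lie between Gstm5 and Gstm2 and did not pass. Gstm1 had 66.7, 58.3 and 63.9 FPKM with mitochondria, against 34.9, 35.0 and 35.9 FPKM with vehicle. Replicates were tight in both groups and vehicle replicate 1 was not raised. Gstm1 rose by 0.90 ± 0.09 (adjusted p = 0.0031, edgeR), the smallest p of the pathway, and passed with any 1 library left out. Gstm2 had 33.7, 27.7 and 30.1 FPKM with mitochondria, against 24.7, 23.9 and 24.7 FPKM with vehicle, a smaller rise of 0.39 ± 0.10 (adjusted p = 0.040). That call was lost without any 1 vehicle library, without mitochondria replicate 3 (adjusted p = 0.101), in limma on log2(FPKM + 0.1) (0.0518), with no filter on low counts (0.0705) and with the replicate number as a block (0.0603). The Gstm1 to Gstm2 ratio, also chosen after the values were seen, was 1.98, 2.11 and 2.12 with mitochondria, against 1.41, 1.47 and 1.45 with vehicle (exact two-sided permutation p = 0.1, the smallest possible). The other ratios computed in this way overlapped between groups. Gstp2 to Gstp1 averaged 0.112 in both groups. Gpx4-ps2 to Gpx4 averaged 0.435 with mitochondria and 0.413 with vehicle (exact two-sided permutation p = 0.3). The mu genes Gstm5 and Gstm4 had 29.0 ± 5.33 and 6.63 ± 0.311 FPKM with mitochondria and 28.8 ± 2.08 and 6.76 ± 1.10 FPKM with vehicle (SD, n = 3 each). The estimates were 0.08 (interval -0.25 to 0.41) and 0.04 (interval -0.30 to 0.38), and both signs turned in limma on FPKM (-0.01 and -0.02). Between the transcripts of Gstm1 and Gstm2 the longest identical run was 60 bases. Gstm1 also resembles Gstm2-ps1 (97.9% identity, longest run 127 bases), which was listed at 2.71 to 3.58 FPKM with mitochondria and 1.03 to 2.13 FPKM with vehicle.

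Gstp1, the most abundant transferase, had 263, 222 and 240 FPKM with mitochondria, against 161, 135 and 131 FPKM with vehicle. No libraries overlapped, and it rose by 0.83 ± 0.11 (adjusted p = 0.0051, edgeR), with any 1 library left out as well. Its mean of 242 FPKM with mitochondria stood above the 205 FPKM of Gpx1, while with vehicle its mean of 142 FPKM stood below the 177 FPKM of Gpx1. The adjacent Gstp2 had 31.0, 22.1 and 28.4 FPKM with mitochondria, against 20.1, 15.7 and 12.4 FPKM with vehicle (0.82 ± 0.20, adjusted p = 0.028), a call lost without vehicle replicate 2 or 3 or mitochondria replicate 3. The transcripts of the pair are 95.7% identical, and 52.8% of 100-base windows of Gstp1 occur unchanged in Gstp2. A pseudogene, Gstp-ps, is 99.2% identical to Gstp2 and was listed at 15.8 to 19.0 FPKM with mitochondria and 7.81 to 11.7 FPKM with vehicle. Counting could have split reads among the 3, so Gstp2 alone is uncertain. Their summed FPKM, which still depends on the split because the 3 transcripts differ in length, was 313, 260 and 284 with mitochondria, against 193, 160 and 151 with vehicle, 1.70 times as high on average.

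None of the 9 theta, omega, zeta, kappa and microsomal genes passed in edgeR, against 14.8% of all genes called in either direction. DESeq2 called none of them either, against 1687 higher and 2175 lower of 17290 genes. With only 9 genes, these counts do not set the classes apart from all genes. In the theta class the most abundant gene, Gstt3, had 12.9, 11.6 and 11.4 FPKM with mitochondria, against 10.6, 12.7 and 13.4 FPKM with vehicle (0.04, interval -0.22 to 0.30, with the sign turned by GC offsets). Gstt1 and Gstt2 had estimates of -0.24 (interval -0.68 to 0.21) and -0.20 (interval -0.75 to 0.35). Gsto1, a thioltransferase and dehydroascorbate reductase, had 48.6, 43.1 and 41.4 FPKM with mitochondria, against 44.7, 35.7 and 37.5 FPKM with vehicle (0.24, interval -0.03 to 0.52). The values overlapped in both genes. Gstz1, an enzyme of tyrosine breakdown, and Gstk1, of mitochondria and peroxisomes, changed by -0.17 (interval -0.49 to 0.15) and 0.40 (interval -0.25 to 1.05). Mgst1, a membrane-bound transferase and peroxidase, had 25.1, 27.7 and 27.7 FPKM with mitochondria, against 25.1, 25.5 and 27.9 FPKM with vehicle. Its estimate of 0.11 (interval -0.11 to 0.32) passed only with GC offsets (0.28, adjusted p = 0.037, edgeR) among the alternatives run. Mgst3 and Mgst2 changed by 0.36 (interval -0.02 to 0.74) and 0.33 (interval -0.08 to 0.74).

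Both exporters rose. Abcc1, which pumps out glutathione conjugates, leukotriene C4 and oxidised glutathione, had 35.7, 35.9 and 33.7 FPKM with mitochondria, against 26.3, 19.0 and 19.6 FPKM with vehicle. It rose by 0.77 ± 0.13 (SE; adjusted p = 0.010, edgeR) with no overlap, and the call was lost without vehicle replicate 2 or 3. Abcc4, which exports cyclic nucleotides, prostaglandins and conjugates, had 8.97, 9.30 and 8.62 FPKM with mitochondria, against 5.75, 4.37 and 3.90 FPKM with vehicle. The mitochondria libraries were close to each other and all above vehicle, and Abcc4 rose by 1.01 ± 0.15 (adjusted p = 0.0067), also with any 1 library left out. RefSeq gives Abcc4 2 starts, and each window holds a match. The one at the gene's outer end (gene at 118482692 to 118706219, chromosome 14), with its match at position -25 on the other strand in capitals, is:
Abcc4 promoter, chr14:118706170-118706469, minus strand: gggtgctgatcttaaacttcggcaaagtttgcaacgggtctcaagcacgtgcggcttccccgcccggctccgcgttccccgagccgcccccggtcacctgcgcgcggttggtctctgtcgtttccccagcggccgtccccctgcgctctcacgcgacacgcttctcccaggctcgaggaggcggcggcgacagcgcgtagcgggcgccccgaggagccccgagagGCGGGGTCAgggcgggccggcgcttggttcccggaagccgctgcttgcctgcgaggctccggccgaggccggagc

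**Figure D3:**
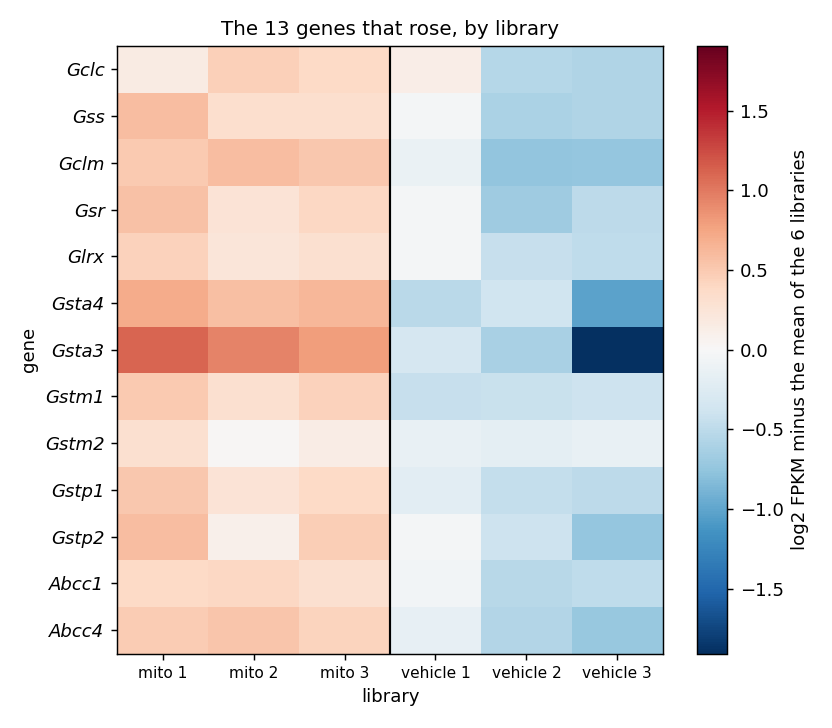
Log2 FPKM of the 13 genes that rose, minus each gene's mean over the 6 libraries (colour), for the mitochondria libraries (left 3 columns) and the vehicle libraries (right 3 columns). Vehicle replicate 1 is the palest vehicle column for Gss, Gsr, Glrx and Abcc1 and lies above the mean for Gclc, while Gstm1 is equally low in the 3 vehicle libraries; the darkest cell is Gsta3 in vehicle replicate 3 (0.174 FPKM).

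The 13 genes that rose differed in how the vehicle libraries stood. In 10 of them vehicle replicate 1 was the highest vehicle library, against 68.7% of the 1099 genes that rose over all. Measured from the mean of vehicle replicates 2 and 3 (0%) to the mitochondria mean (100%), vehicle replicate 1 stood at 69.4% for Gclc, 47.3% for Gsr, 46.6% for Gss and 37.7% for Gclm. It stood at 47.6% for Glrx, 46.6% for Gstp2, 44.0% for Abcc1, 33.4% for Abcc4, 25.8% for Gstp1 and 23.3% for Gsta3. It lay near the other vehicle libraries for Gsta4 (7.68%), Gstm2 (6.76%) and Gstm1 (-1.89%). Without vehicle replicate 1, 13 genes were higher: 12 of the same, with Slc7a11 gained and Gstm2 lost (adjusted p = 0.0826, edgeR).

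Leaving out vehicle replicate 2 left 5 of the 13 genes called, and leaving out vehicle replicate 3 left 6. The share of all genes called higher fell as well in these fits, to 0.727% and 0.736%. Estimates moved less: over the 13 genes they ran between 0.36 and 1.9 with vehicle replicate 2 left out, and between 0.39 and 1.47 with vehicle replicate 3 left out. With no filter on low counts 6 of the 13 passed, and Gclc (adjusted p = 0.114), Gss (0.0546), Gsr (0.058), Glrx (0.0514), Gsta3 (0.0568), Gstm2 and Gstp2 (0.0813) did not. Called in every one of the 6 fits with a library left out were 5 genes, Gclm, Gsta4, Gstm1, Gstp1 and Abcc4. With GC offsets all 13 passed (adjusted p 0.00057 to 0.025), beside Slc7a11, Ggct, Gpx8 and Mgst1, for 17 in all, against 10% of all genes called higher in that fit (1734 higher and 1630 lower, where the fit without offsets gave 1099 and 1463).

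**Figure D4:**
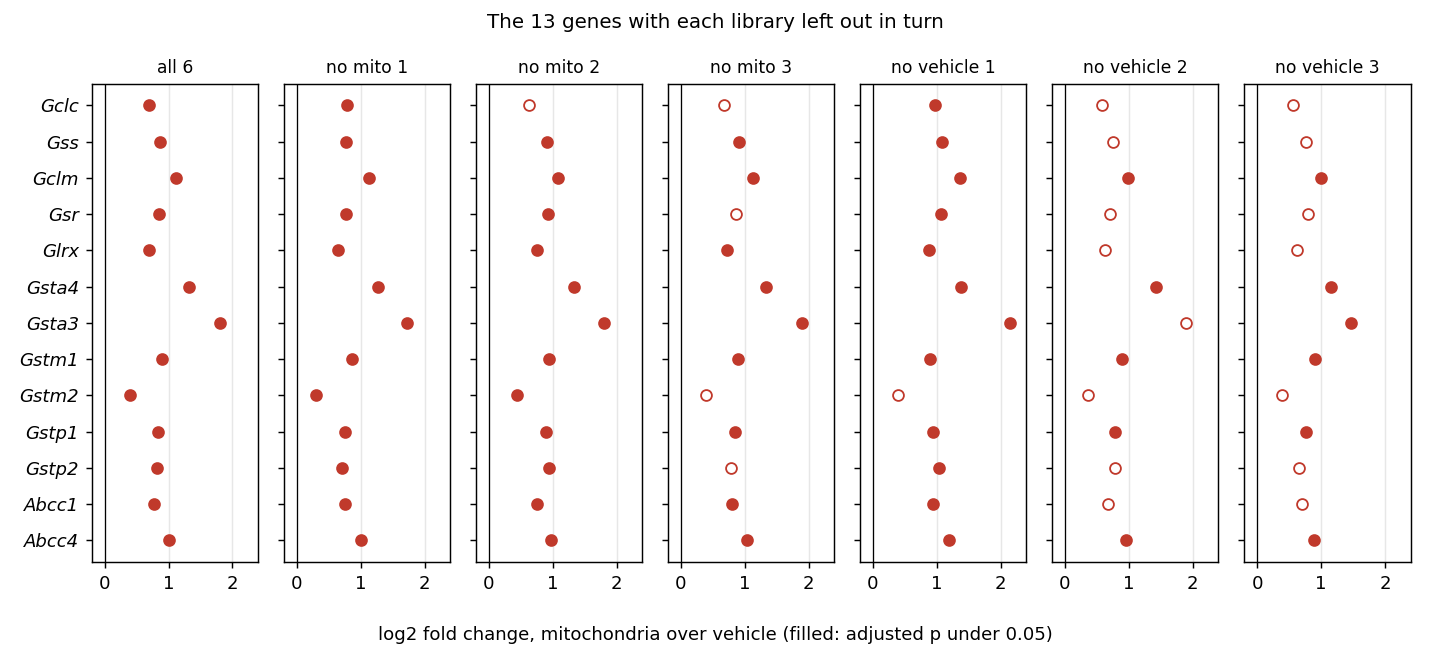
Log2 fold change of mitochondria over vehicle for the 13 genes that rose, with all 6 libraries (left panel) and with each library left out in turn. Filled points have an adjusted p under 0.05 and open points do not; 5 points are filled where vehicle replicate 2 is left out, 6 where vehicle replicate 3 is, and every point lies above 0.

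Other genes that use, break down or supply glutathione were taken from a wider list. Of 40 tested, 4 rose (10%), against 6.36% of all genes, and 3 fell, against 8.46% of all genes, with a median log2 fold change of 0.04. Esd, which hydrolyses S-formylglutathione, was the most abundant of these 7, with 324, 300 and 318 FPKM with mitochondria, against 204, 150 and 139 FPKM with vehicle. It rose by 1 ± 0.14 (SE; adjusted p = 0.0058, edgeR), with any 1 library left out as well. Ptges, the glutathione-dependent synthase of prostaglandin E2, rose by 1.25 ± 0.21 (adjusted p = 0.0094), and Slc3a2, the heavy chain that anchors Slc7a11 in the membrane, rose by 0.48 ± 0.12 (adjusted p = 0.028). Both calls were lost without vehicle replicate 2 or 3, and that of Slc3a2 also without mitochondria replicate 3 (adjusted p = 0.0575). Dpep1, which cleaves cysteinylglycine, rose by 0.83 ± 0.22 (adjusted p = 0.040), a call lost without any 1 of the 6 libraries. Among those lower were Cth, which makes cysteine from cystathionine (-0.76 ± 0.20, adjusted p = 0.040), and the exporter Abcc5 (-0.60 ± 0.10, adjusted p = 0.0083). The call of Cth held in 1 of 6 fits with a library left out, that without mitochondria replicate 1 (adjusted p = 0.029), and was 0.0527 to 0.145 in the others. With vehicle replicate 2 or 3 left out 1 of the 40 was higher and none lower in edgeR.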

How the data were processed

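The authors deposited 1 table with 2 values per gene and library: FPKM, normalised by the authors for transcript length and depth, and estimated counts per gene, which the authors deposited as whole numbers without normalisation. The submitters' processing notes name HISAT2 2.0, StringTie 1.3.0, Bowtie 0.12.2 and build mm8 without roles; the coordinates are those of GRCm38, where GENCODE M21 gives 34 of the 36 genes the same start and end. Strandedness of the libraries is not given in the sources used here.

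Counts were fitted in R 4.3.3 with edgeR 4.0.16 over the whole table: TMM scaling, filterByExpr (minimum count 10, 17290 genes kept), a quasi-likelihood fit on group alone, two-sided, Benjamini-Hochberg over all genes. Each SE was derived from the fold change and its F statistic (|log2 fold| divided by √F). The script was tested on simulated data. Low counts peaked at 4 (2.31 to 2.84 times the neighbouring values), so 1 fragment is taken as 4 counts. Alternatives were DESeq2 1.42.0, limma 3.58.1 on FPKM, GC offsets (lowess span 0.3 on GENCODE transcript GC, known for 99.7% of genes), other filters and scalings, and each library left out. The genes and lists were chosen with earlier results of these data known. Per-library values were given for each gene past the threshold and for the most abundant gene of each class; those of Slc7a11, Glrx3, Gpx3, Gpx4 and Gsta1 were added after their values were seen. The wider list names its called genes, except 1 that is not reported here. Transcript similarity came from local alignments of the longest GENCODE transcripts.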

Additional observations from a re-analysis of the deposited data

How the results depend on the processing

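Of 560 refits of single genes (35 genes under 16 alternatives), 501 kept their direction and side of the threshold, 31 lost a call, 9 gained one in the same direction and 19 turned sign, all of these 19 in 5 genes that had not passed. The 501 include genes that had not passed and again did not. All 31 lost calls fell among the 13 genes that rose, of which 5 kept the call with any 1 library left out. Of the 19, 2 also gained a call, Gpx8 with GC offsets (adjusted p = 0.014) and with the block and GC offsets (0.0256). With all libraries, 13 genes of the pathway were higher and 0 lower, and of all genes 1099 were higher and 1463 lower; of the wider list 4 were higher and 3 lower. With 1 library left out these counts ranged from 5 to 13 and stayed at 0 for the pathway, from 130 to 1086 and from 310 to 1694 for all genes, and from 1 to 4 and from 0 to 3 for the wider list. With no filter on low counts 6 genes of the pathway were higher, of all genes 357 higher and 507 lower, and of the wider list 2 and 1; that fit tested 26044 genes. DESeq2 called 14 genes of the pathway, 1687 of all genes higher, and 8 higher and 5 lower in the wider list, and GC offsets gave 1734 of all genes higher. Counts divided by 4 gave 5 lower in the wider list. Limma on FPKM called 1 gene of the pathway lower, Glrx3, with either pseudocount (1 or 0.1). The cause of these moves was not tested.

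Signs turned for Glrx2 (0.19 with GC offsets and 0.19 with the block and GC offsets), Gpx8 (0.33 and 0.33 in those fits, -0.06 to 0.08 with 1 library left out), Gstm5 (-0.01 in both limma fits, 0.00 to 0.22), Gstm4 (-0.02 in both limma fits, -0.05 with GC offsets, -0.04 with the block and GC offsets, -0.06 to 0.17) and Gstt3 (-0.03 in both limma fits, -0.08 with GC offsets, -0.07 with the block and GC offsets, -0.05 to 0.11).

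The labels do not say that a shared replicate number pairs libraries, and once group means were removed same-numbered libraries correlated at 0.037, 0.0091 and -0.015. With the replicate number as a block, 11 genes of the pathway were higher and 0 lower (Gclc and Gstm2 lost), and 16 with the block and GC offsets. Genes near the bottom of the range, such as Gsta1 at 18 to 134 counts per library, rest on few fragments, and intervals cover the spread of 3 libraries a group.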
